A study of Capra hircus with 20 samples.

Results

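The genes described here encode 10 proteins that relay, blunt or degrade the signals of the TGF-beta superfamily inside the cell, as measured in goat cells labelled as preadipocytes and adipocytes of muscle and of subcutaneous fat: the SMAD genes SMAD1, SMAD2, SMAD3, SMAD4, SMAD5, SMAD6, SMAD7 and SMAD9, and the ubiquitin ligase genes SMURF1 and SMURF2. They were taken by symbol from the deposited table of mRNA values, in which the transcripts of each symbol were summed. The 10 genes were found among 20587 symbols and held 25 of the 43766 transcripts of the table. All 10 passed the minimum set for a test, a mean over all libraries of 1 FPKM, as did 11432 genes in all.

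TGF-beta, activin and myostatin bind receptor kinases that phosphorylate SMAD2 and SMAD3, whereas bone morphogenetic proteins (BMPs) act through SMAD1, SMAD5 and SMAD9. These receptor-regulated SMADs join SMAD4, the common partner, and enter the nucleus. SMAD6 and SMAD7 are inhibitory SMADs: SMAD6 acts mainly on the BMP branch and SMAD7 on both branches, and both are themselves induced by the pathway. SMURF1 and SMURF2 are HECT-type ubiquitin ligases that mark SMADs and, brought there by SMAD7, the receptors for degradation. In fat, BMP4 and BMP2 are known for committing precursors to the adipocyte fate, and SMAD3 for restraining adipocyte differentiation under TGF-beta.

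RNA was sequenced from 20 libraries in 4 groups of 5. Intramuscular preadipocytes (IMPA) had been isolated from the longissimus dorsi, a back muscle, and subcutaneous preadipocytes (SPA) from subcutaneous fat of male Jianzhou Daer goats 7 days old, both by digestion with collagenase, and were grown to passage 3 in DMEM/F12 medium with fetal bovine serum. Intramuscular adipocytes (IMA) and subcutaneous adipocytes (SA) were the same kinds of cells after 3 days in that medium with oleic acid, the inducing agent, and the preadipocytes were harvested at day 0. No genotype or transgene was involved. The study describes 5 goats, from which both tissues were taken, and 5 biological replicates in each group. Which goat is behind each library is not given, so libraries of different depots and stages may come from the same animals. P-values measure the spread between these libraries.

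The labelled cell types were checked against lists of marker genes, in FPKM summed over each list. Of 18 skeletal muscle markers, 16 were in the table and 16 were called higher in IMPA than in SPA, beside 42.3% of all genes. Their sum was 3513 to 4019 in IMPA, 12714 to 13507 in IMA, 7.60 to 25.9 in SPA and 9.30 to 11.1 in SA. MYOD1, a defining muscle regulator, was listed at 0 in all 5 SPA libraries and averaged 43.2 in IMPA. MYOG, which drives muscle differentiation, averaged 649 FPKM in IMPA and 736 in IMA, and DES, the muscle filament desmin, 573 and 1743. The intramuscular libraries thus held abundant muscle RNA, which goes against their labels as fat cells and their precursors. The study took lipid droplets under Oil Red O at day 3 and a fall of Pref-1 (DLK1) mRNA as signs of differentiation in both depots. In these libraries DLK1 was low throughout, with means of 0.0114, 0.0316, 0.145 and 0.157 FPKM in IMPA, IMA, SPA and SA. Of 12 adipocyte markers, 11 were found (FABP4 was not analysed here) and 5 reached a mean of 1 FPKM. ADIPOQ and PLIN1, which mark mature adipocytes, averaged under 1 FPKM in every group, with highest group means of 0.419 for ADIPOQ and 0.276 for PLIN1. The sum of the adipocyte markers was 34.0 to 45.1 in IMPA, 49.5 to 74.3 in IMA, 17.7 to 25.3 in SPA and 15.7 to 30.4 in SA. The differences in that sum lay mostly in CIDEA, a lipid droplet protein, which averaged 27.8, 44.4, 7.47 and 8.79 FPKM in IMPA, IMA, SPA and SA. CIDEC, its relative, went the other way, at 0.333, 0.318, 4.65 and 4.35 FPKM. Of the 5 tested adipocyte markers, 2 rose and 1 fell in IMA, beside 19.9% and 40.2% of all genes tested. In SA 1 rose and 2 fell, beside 26.1% and 26.0%. CD36 averaged 0.252, 4.91, 0.0679 and 0.934 FPKM in IMPA, IMA, SPA and SA, and CEBPA 9.23, 5.42, 5.05 and 3.91. Stromal markers differed widely in level, with sums of 4506 to 7045 in IMPA, 5993 to 6728 in IMA, 11326 to 11722 in SPA and 10333 to 10643 in SA. Most of these sums lay in COL3A1 and DCN. COL3A1 averaged 4444, 5242, 4303 and 4975 FPKM in IMPA, IMA, SPA and SA. DCN averaged 660, 535, 5441 and 4120, and the depot gap in the sum lay mostly in it. DLK1 and CD34 averaged under 1 FPKM in every group. The 7 endothelial markers summed to between 0.641 and 1.23 in all libraries. Of 8 macrophage and leukocyte markers, 6 were found. They summed to 4.46 to 8.41 in IMPA, 9.70 to 12.4 in IMA, 15.5 to 18.3 in SPA and 12.7 to 15.8 in SA. Most of that sum lay in CD14, which averaged 5.91, 9.93, 14.5 and 13.0 FPKM in IMPA, IMA, SPA and SA. PTPRC was at or near 0, and CSF1R, AIF1 and ITGAM averaged under 1 FPKM in every group. The 11 proliferation markers summed to 169 to 207 in IMPA, 148 to 175 in IMA, 75.5 to 85.7 in SPA and 333 to 376 in SA. All 11 were called higher in IMPA than in SPA, beside 42.3% of all genes, and lower in IMA than in SA, beside 43.4%. All 11 were also higher in SA than in SPA, beside 26.1%, and 7 of 11 fell in IMA, beside 40.2%. Every depot difference described below therefore goes with muscle, stromal and proliferation markers. The changes with induction in IMA go with muscle and proliferation markers. There 14 of 16 muscle markers rose and 1 fell, beside 19.9% and 40.2% of all genes. In SA the changes go with proliferation and stromal markers. There 7 of 9 tested stromal markers fell and 1 rose (median -0.40), beside 26.0% and 26.1% of all genes. Adipocyte markers were called in both directions in each of these comparisons. The part of all these markers in the SMAD and SMURF values was not tested. In bulk RNA, fewer cells of a type and less RNA per cell cannot be told apart.

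FPKM scales the fragments of a transcript by its length and by the size of the library, so levels can be set beside each other across genes. The study gives the mapped reads of each library, but the number of fragments behind each value is not given and was not estimated here. Summed over all mRNAs, libraries came to 373889 to 413880 FPKM, and 27518 to 32122 mRNA transcripts per library were above 0. In the read statistics of the study, every IMPA library had a higher share of mapped reads than any library of the other groups. The GC content of its reads was also higher. Each comparison with IMPA, and the difference of the induction changes, goes with that difference between libraries too. Its part in the SMAD and SMURF values was not tested.

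SMAD5 had the highest level of the 10 genes in all 4 groups, with means of 35.8 ± 1.11 FPKM in IMPA, 37.6 ± 1.08 in IMA, 45.6 ± 1.64 in SPA and 41.1 ± 2.56 in SA (SD, n = 5 libraries here and throughout). Below it the order depended on the cells. In IMPA it ran from SMAD2 and SMAD4, whose libraries overlapped, through SMURF2, SMAD1, SMAD3, SMAD9, SMAD6 and SMURF1 to SMAD7 at 3.74 ± 0.307 FPKM, with SMAD3 and SMAD9 also overlapping. In IMA the libraries of SMAD2, SMURF2, SMAD1 and SMAD4 overlapped from each to the next, as did those of SMAD3 and SMAD9 and of SMAD7 and SMAD6, and SMURF1 was lowest at 4.02 ± 0.267 FPKM. In SPA, SMAD6 was second at 42.9 ± 1.301 FPKM and overlapped SMAD5, SMAD3 followed at 30.4 ± 0.840, and SMURF1 was again lowest at 5.56 ± 0.339. Between them, SMAD2 overlapped SMAD4, SMURF2 overlapped SMAD9, and SMAD1 overlapped SMAD7. In SA, SMAD6 was second at 26.8 ± 1.06 FPKM, apart from SMAD5 above it and SMAD2 below it, and SMURF1 was lowest at 4.59 ± 0.366. There SMAD2, SMAD4, SMAD3 and SMURF2 overlapped from each to the next, and SMAD7 overlapped SMAD1.

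**Figure D1:**
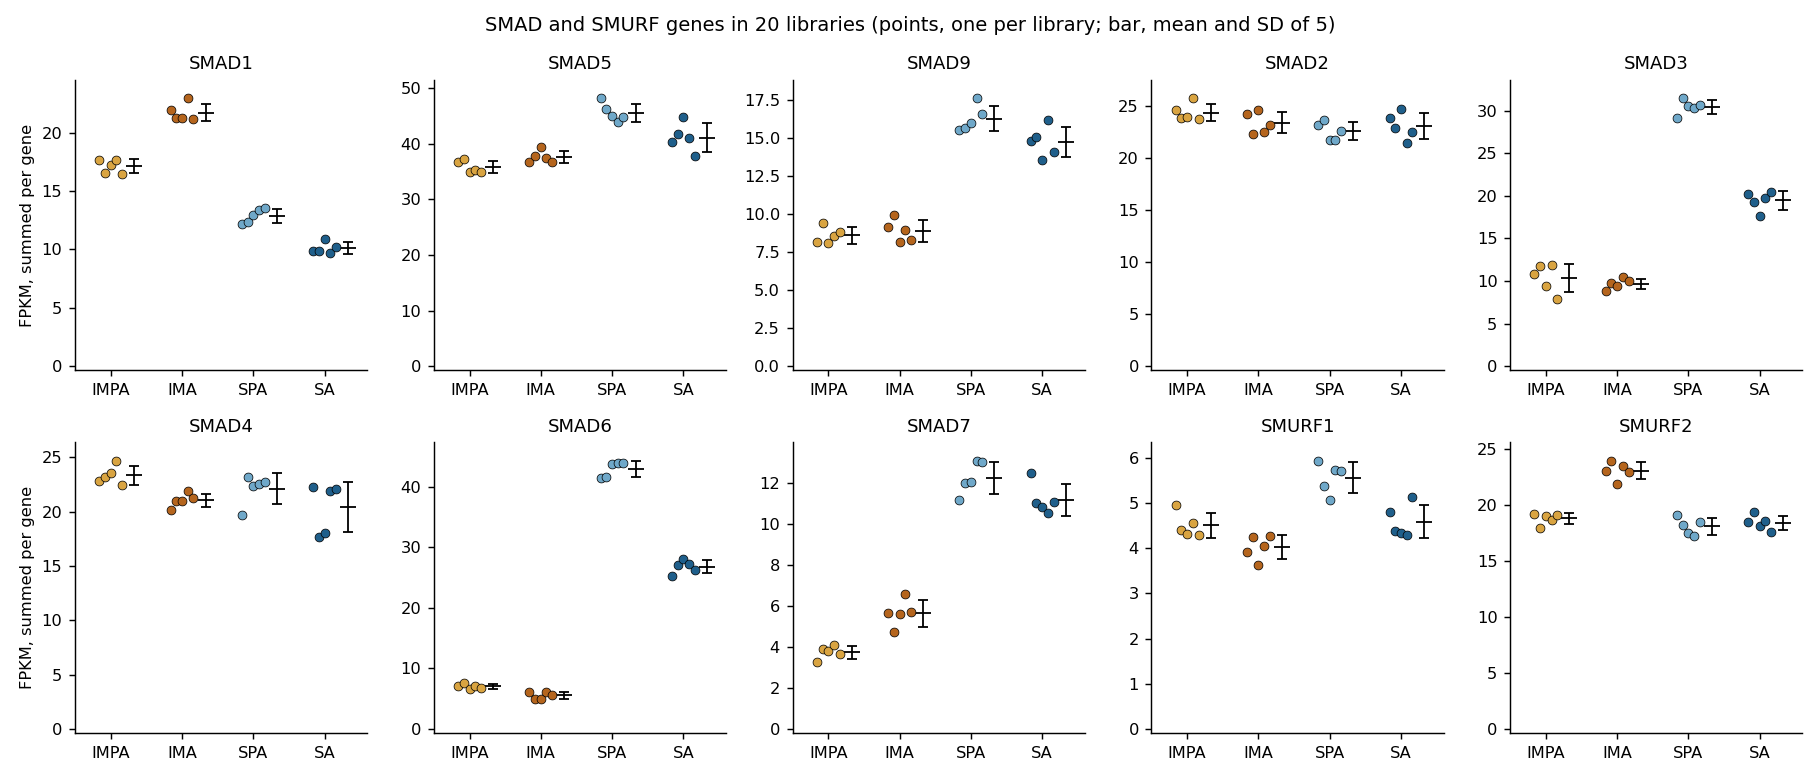
FPKM of each SMAD and SMURF gene, transcripts summed, on linear axes from 0 for the 4 groups of 5 libraries (points, libraries; horizontal bar and whiskers, mean and SD). SMAD6 lies between 4.95 and 7.66 FPKM in the 10 intramuscular libraries and between 25.3 and 44.0 in the 10 subcutaneous ones, whereas SMAD2 stays between 21.4 and 25.7 throughout.

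Which of these genes differ between the muscle and the fat depot, and which change during induction in each, was asked with 4 comparisons of 2 groups and with the difference of the 2 induction changes. A gene was called where the adjusted p of limma, over all 11432 genes, was under 0.05. Differences are of means of log2(FPKM + 1), a scale that understates the change of low genes. Comparisons that share a group are not independent of each other.

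At day 0, 8 of the 10 genes were called between IMPA and SPA, against 75.1% of all genes tested. SMAD1 and SMAD2 were higher in IMPA (background 42.3%), and SMAD3, SMAD5, SMAD6, SMAD7, SMAD9 and SMURF1 were lower (background 32.9%). The libraries of 8 of the 10 genes did not overlap, against 63.4% of all genes. At day 3, 8 of 10 were called between IMA and SA (background 72.4%), with SMAD1 and SMURF2 higher in IMA (background 29.0%) and SMAD3, SMAD5, SMAD6, SMAD7, SMAD9 and SMURF1 lower (background 43.4%). Here 7 genes did not overlap (background 58.6%). The counts of called genes were close to the background at both times, and 6 of the 8 called genes were lower in the intramuscular cells. The median difference of the 10 genes was -0.30 at day 0 and -0.14 at day 3, beside 0.05 and -0.09 over all genes.

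During induction of the intramuscular cells, 6 of the 10 genes were called between IMA and IMPA, against 60.1% of all genes. SMAD1, SMAD7 and SMURF2 rose (background 19.9%) and SMAD4, SMAD6 and SMURF1 fell (background 40.2%), and none of these 6 overlapped between the groups (background 43.5%). In the subcutaneous cells 6 of 10 were called between SA and SPA (background 52.1%), and all 6 fell, SMAD1, SMAD3, SMAD5, SMAD6, SMAD9 and SMURF1 (background 26.0%). None rose (background 26.1%). SMAD2 and SMURF2 had a higher mean in SA, but neither passed the test and both were lower there with each library scaled to the same summed mRNA FPKM (-0.04 for each). The libraries of 3 genes did not overlap (background 38.8%). The median of the 10 genes was -0.01 in the intramuscular and -0.14 in the subcutaneous cells, beside -0.09 and -0.01 over all genes. With that scaling, 36.4% of all genes called between SA and SPA were higher, instead of 50.1%, and SMAD7 was then called lower as well (-0.19, adjusted p = 0.0236).

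The induction change itself differed between the depots for 6 of the 10 genes (background 55.3%). For all 6, SMAD1, SMAD3, SMAD5, SMAD6, SMAD7 and SMURF2, the intramuscular change was the more positive (background 20.7%), and none was called the other way (background 34.6%). The median over the 10 genes was 0.24, beside -0.08 over all genes.

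**Figure D2:**
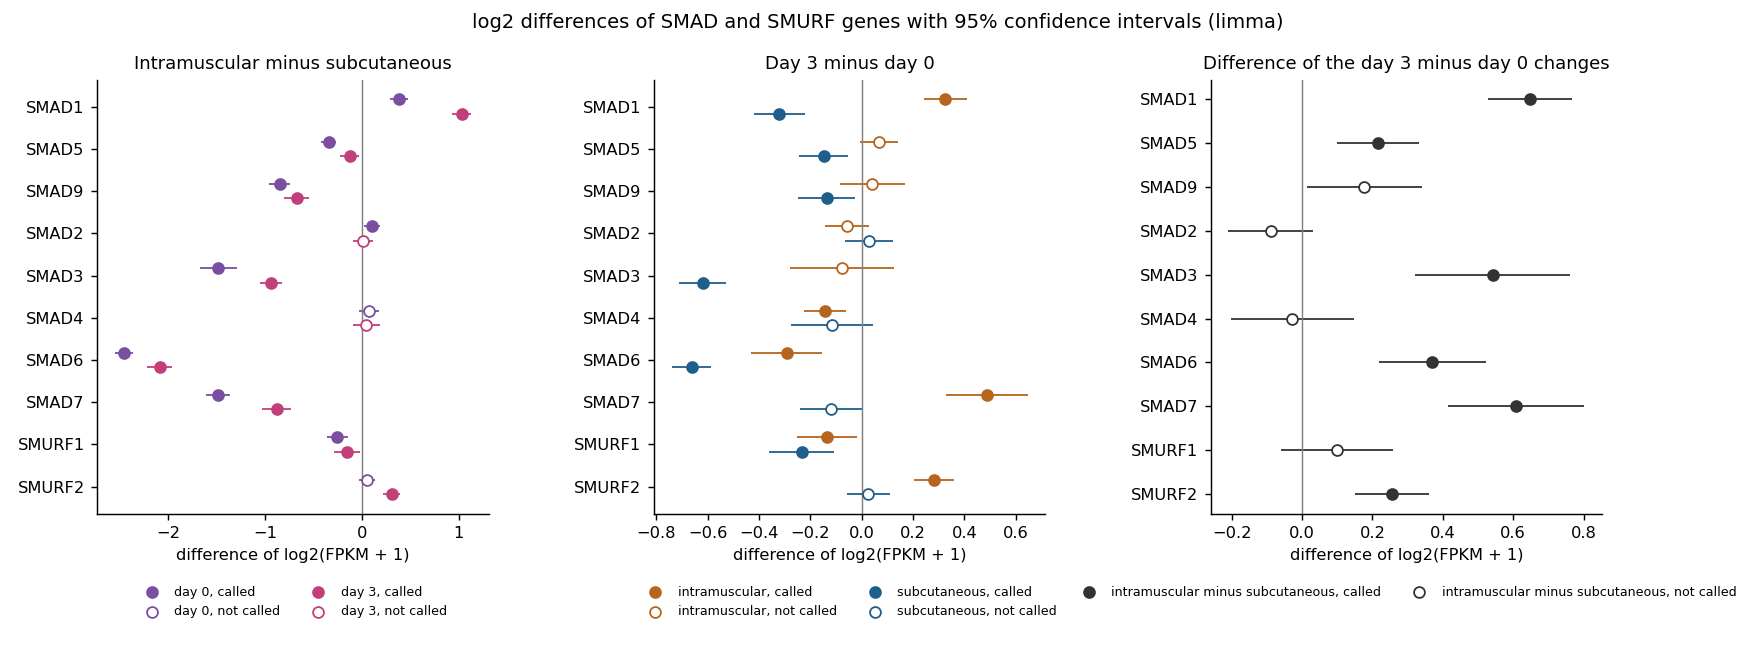
Differences of log2(FPKM + 1) for the 10 genes (filled, adjusted p under 0.05; open, not called; lines, 95% confidence intervals) between depots (left), between day 3 and day 0 (middle) and between the 2 induction changes (right). SMAD6 has the widest depot difference, -2.45 at day 0, and SMAD1 has induction changes of opposite sign, 0.33 in intramuscular and -0.32 in subcutaneous cells.

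Among the receptor-regulated SMADs of the BMP branch, SMAD1 (gene ID 102176988) was the gene that moved in opposite directions with induction. In replicate order, its libraries were at 17.7, 16.5, 17.3, 17.7 and 16.5 FPKM in IMPA and at 22.0, 21.3, 21.2, 22.9 and 21.2 in IMA. In SPA they were at 12.2, 12.4, 12.9, 13.4 and 13.6 FPKM, and in SA at 9.91, 9.83, 10.9, 9.70 and 10.2. The 4 groups did not overlap anywhere, with IMA highest and SA lowest. SMAD1 rose by 26.9% in intramuscular cells (log2 difference 0.33, SE 0.04, adjusted p = 1.94e-05) and fell in subcutaneous cells (-0.32, SE 0.05, adjusted p = 8.43e-05). The 2 changes differed by 0.65 (SE 0.06, adjusted p = 4.13e-09). The depot gap was 1.33-fold in favour of IMPA at day 0 (0.39, SE 0.04, adjusted p = 2.22e-06) and 2.15-fold in favour of IMA at day 3 (1.03, SE 0.04, adjusted p = 4.87e-11).

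SMAD5 (gene ID 102180667), the second BMP-branch SMAD, was higher in the subcutaneous cells at both times. Its libraries ranged from 34.9 to 37.3 FPKM in IMPA and from 43.9 to 48.1 in SPA, without overlap, a difference of -0.34 (SE 0.04, adjusted p = 1.89e-06). At day 3 the groups overlapped, IMA from 36.7 to 39.4 and SA from 37.7 to 44.8 FPKM, and the difference was -0.12 (SE 0.05, adjusted p = 0.0285). That call was lost without IMA 1, IMA 4, IMA 5, SA 2 or SA 3 (adjusted p = 0.0522 to 0.0691) and with upper-quartile scaling (-0.06, adjusted p = 0.318) and with a library-size covariate (-0.10, adjusted p = 0.0939). SMAD5 fell in SA (-0.15, SE 0.04, adjusted p = 0.0142), a call lost when SPA 1 and SA 5, in which read filtering removed less than in the other subcutaneous libraries, were both left out (-0.10, adjusted p = 0.0587). In the intramuscular cells the change was 0.07 (95% confidence interval -0.01 to 0.14, adjusted p = 0.102), which did not pass the test.

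SMAD9 (gene ID 102175489), the least abundant SMAD of this branch in intramuscular cells, ranged from 8.08 to 9.41 FPKM in IMPA and from 8.16 to 9.97 in IMA. It ranged from 15.6 to 17.6 FPKM in SPA and from 13.6 to 16.2 in SA, so the depots did not overlap at either time. The depot difference was -0.85 at day 0 (SE 0.05, adjusted p = 6.13e-09) and -0.67 at day 3 (SE 0.06, adjusted p = 1.85e-07), which is 1.89-fold and 1.66-fold higher in the subcutaneous cells. At day 3 its most abundant transcript alone was not called (-0.35, adjusted p = 0.198). Its fall in SA (-0.14, SE 0.05, adjusted p = 0.0416) was lost without SA 1, SA 2, SA 3, SA 5, SPA 3, SPA 4 or SPA 5 (adjusted p = 0.0538 to 0.102), and without SPA 1 and SA 5 together (adjusted p = 0.0738). It was also lost with no filter on low genes (adjusted p = 0.0710), with upper-quartile scaling (0.0538), with a library-size covariate (0.0831) and for its most abundant transcript alone, which gave 0.04. In the intramuscular cells the difference was 0.04 (95% confidence interval -0.09 to 0.17, adjusted p = 0.554).

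SMAD2 and SMAD3, the SMADs of the TGF-beta and activin branch, behaved apart. SMAD2 (gene ID 102188455) varied least between groups: the 20 libraries lay between 21.4 and 25.7 FPKM. Its mean was 24.3 ± 0.826 in IMPA and 22.6 ± 0.847 in SPA, a difference of 0.11 (SE 0.04, adjusted p = 0.0204) whose call was lost without SPA 3 (0.09, adjusted p = 0.0547), with equal summed mRNA FPKM (0.08, adjusted p = 0.0666) and for its most abundant transcript alone (0.09, adjusted p = 0.0552). The 3 other SMAD2 differences between 2 groups did not pass the test, and their 95% confidence intervals lay between -0.14 and 0.12.

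SMAD3 (gene ID 102169293) was 2.94-fold higher in SPA than in IMPA and 2.01-fold higher in SA than in IMA. Its IMPA libraries were at 10.8, 11.8, 9.42, 11.9 and 7.93 FPKM and its IMA libraries at 8.88, 9.72, 9.36, 10.4 and 9.96. The SPA libraries were at 29.1, 31.4, 30.6, 30.3 and 30.6 FPKM and the SA libraries at 20.2, 19.3, 17.6, 19.7 and 20.5. The 2 intramuscular groups overlapped, and both lay below SA, which lay below SPA. The depot difference was -1.48 at day 0 (SE 0.09, adjusted p = 7.75e-09) and -0.94 at day 3 (SE 0.05, adjusted p = 1.03e-09). SMAD3 fell by 0.62 on the log2 scale in SA (SE 0.04, adjusted p = 1.19e-07). In IMA the difference was -0.08 (95% confidence interval -0.28 to 0.12, adjusted p = 0.489), and the 2 changes differed by 0.54 (SE 0.11, adjusted p = 0.000188).

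SMAD4 (gene ID 100861019), the partner shared by both branches, was called only in IMA against IMPA. It was at 22.4 to 24.6 FPKM in IMPA and at 20.1 to 21.8 in IMA, without overlap, and fell by 0.14 (SE 0.04, adjusted p = 0.00550). In SPA it was at 19.7 to 23.2 FPKM and in SA at 17.7 to 22.2, with SA 2 and SA 3 at 17.7 and 18.1 and the other 3 SA libraries at 21.9 to 22.2. The change of SMAD4 in SA was -0.12 (95% confidence interval -0.27 to 0.04, adjusted p = 0.202), which did not pass the test. The 2 induction changes were not shown to differ (-0.03, adjusted p = 0.802). Its differences between depots were 0.08 at day 0 and 0.05 at day 3, with 95% confidence intervals of -0.03 to 0.18 and -0.09 to 0.19.

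Both inhibitory SMADs were higher in the subcutaneous cells, and SMAD6 had the widest depot gap of the 10 genes. SMAD6 (gene ID 102169389) was 6.11-fold higher in SPA than in IMPA and 4.81-fold higher in SA than in IMA. Its libraries were at 7.09, 7.66, 6.53, 7.04 and 6.83 FPKM in IMPA and at 6.09, 5.02, 4.95, 6.11 and 5.67 in IMA. They were at 41.4, 41.7, 43.8, 43.9 and 44.0 FPKM in SPA and at 25.3, 27.1, 28.0, 27.3 and 26.2 in SA. No 2 groups overlapped, with SPA highest and IMA lowest. The depot difference was -2.45 at day 0 (SE 0.04, adjusted p = 6.18e-14), a size that 2.69% of the genes tested exceeded, and -2.08 at day 3 (SE 0.06, adjusted p = 3.89e-13), which 4.22% exceeded. SMAD6 fell with induction in both depots, by 0.29 in IMA (SE 0.06, adjusted p = 0.00188) and by 0.66 in SA (SE 0.04, adjusted p = 1.52e-08). The 2 falls differed by 0.37 (SE 0.07, adjusted p = 0.000207).

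SMAD7 (gene ID 102190008) shared the depot gap but not the fall. Its libraries were at 3.26, 3.89, 3.79, 4.08 and 3.66 FPKM in IMPA and at 5.65, 4.74, 5.60, 6.59 and 5.70 in IMA. In SPA they were at 11.2, 12.0, 12.0, 13.1 and 13.0 FPKM and in SA at 12.5, 11.0, 10.8, 10.5 and 11.1. Each IMA library was above each IMPA library, and both intramuscular groups were below the subcutaneous groups, which overlapped. SMAD7 rose by 51.4% in IMA (0.49, SE 0.07, adjusted p = 0.000129). Its most abundant transcript alone gave 0.30 there (adjusted p = 0.0775). In SA the difference was -0.12 (95% confidence interval -0.24 to 2.00e-05, adjusted p = 0.0864). It passed without SA 1 (-0.16, adjusted p = 0.0225), the highest SA library, and without SPA 1 (-0.15, adjusted p = 0.0378), the lowest SPA library. SMAD7 was 3.28-fold higher in SPA than in IMPA (-1.49, SE 0.06, adjusted p = 1.16e-10) and 1.98-fold higher in SA than in IMA (-0.88, SE 0.07, adjusted p = 5.04e-08).

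Of the ubiquitin ligases, SMURF2 (gene ID 102173331) stood out in IMA. Its libraries were at 19.2, 17.9, 19.0, 18.6 and 19.1 FPKM in IMPA and at 23.0, 23.9, 21.9, 23.5 and 22.9 in IMA. In SPA they were at 19.1, 18.2, 17.5, 17.2 and 18.5 FPKM and in SA at 18.4, 19.3, 18.1, 18.6 and 17.6. The IMA libraries were above all others, and the other 3 groups overlapped. SMURF2 rose by 22.7% in IMA (0.28, SE 0.04, adjusted p = 4.05e-05) and was higher in IMA than in SA (0.31, SE 0.04, adjusted p = 1.09e-05). Its change in SA was 0.03 (95% confidence interval -0.06 to 0.11), and the 2 changes differed by 0.26 (SE 0.05, adjusted p = 0.000226). Between IMPA and SPA it was not called (0.05, adjusted p = 0.210), except with upper-quartile scaling (0.10, adjusted p = 0.0480).

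SMURF1 (gene ID 102170381) was expressed at a lower level, between 3.62 and 5.93 FPKM over the 20 libraries, and was lower in the intramuscular cells. Its difference was -0.25 at day 0 (SE 0.05, adjusted p = 0.000599) and -0.15 at day 3 (SE 0.06, adjusted p = 0.0352). The day 3 call was lost without IMA 1, IMA 3, IMA 4, SA 1 or SA 5 (adjusted p = 0.0542 to 0.0929), without SPA 1 and SA 5 together (0.0929), with upper-quartile scaling (-0.10, adjusted p = 0.149) and with equal summed mRNA FPKM (adjusted p = 0.0616). SMURF1 fell with induction in SA (-0.23, SE 0.06, adjusted p = 0.00479) and, closer to the threshold, in IMA (-0.14, SE 0.05, adjusted p = 0.0443). The IMA call was lost without IMPA 1, IMPA 2, IMPA 3, IMPA 4, IMA 1, IMA 3 or IMA 4 (adjusted p = 0.0503 to 0.114). It was also lost with a minimum mean of 0.1 FPKM (adjusted p = 0.0522), with no filter (0.0540), with upper-quartile scaling (0.0768), with a library-size covariate (0.0567) and with the replicate number as a block (0.0708). Its most abundant transcript alone was not called in any of these comparisons. The 2 changes were not shown to differ (0.10, 95% confidence interval -0.06 to 0.26, adjusted p = 0.281).

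Summed by role, receptor-regulated SMADs gave 96.3 ± 3.24 FPKM in IMPA, 101 ± 1.27 in IMA, 128 ± 1.19 in SPA and 109 ± 2.38 in SA. SMAD1, SMAD5 and SMAD9 made up 64.0% ± 1.25 of that sum in IMPA, 67.4% ± 0.663 in IMA, 58.6% ± 0.696 in SPA and 60.8% ± 1.37 in SA. The share was thus above 62% in every intramuscular library, at 59.1% to 62.1% in SA and at 57.4% to 59.2% in SPA. Inhibitory SMADs came to 10.6 to 11.7 FPKM per 100 FPKM of receptor-regulated SMAD in IMPA and to 9.65 to 12.4 in IMA. They came to 41.0 to 44.9 per 100 in SPA and to 34.7 to 35.5 in SA, which separated the depots in every library. The sum of all 10 genes was 154 ± 3.97 FPKM in IMPA, 161 ± 2.11 in IMA, 229 ± 2.59 in SPA and 190 ± 2.10 in SA. These sums were not tested, since the genes in them are the ones described above.

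Ratios of genes within a library do not depend on the scaling between libraries. SMAD2 was at 2.40 ± 0.383 times SMAD3 in IMPA and at 2.43 ± 0.240 times in IMA. In SPA, SMAD3 exceeded SMAD2 (1.35 ± 0.0602 times), and in SA it was at 0.847 ± 0.0823 of SMAD2. SMAD6 was at 1.89 ± 0.189 times SMAD7 in IMPA and at 0.989 ± 0.0827 in IMA, where the 2 inhibitory genes were at about the same level. It was at 3.51 ± 0.156 times SMAD7 in SPA and at 2.40 ± 0.236 in SA. SMAD1 over SMAD9 was 2.00 ± 0.179 in IMPA, 2.45 ± 0.194 in IMA, 0.790 ± 0.0226 in SPA and 0.689 ± 0.0779 in SA. SMURF2 over SMURF1 was 4.17 ± 0.245 in IMPA, 5.75 ± 0.258 in IMA, 3.26 ± 0.168 in SPA and 4.04 ± 0.405 in SA.

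The 10 genes were described by 25 transcripts, of which 15 reached a mean of 1 FPKM and were tested among 16706 transcripts. Between SPA and IMPA 9 of the 15 were called (background 50.5%), and between IMA and SA 6 were (background 46.9%). With induction 5 were called in IMA (background 33.4%) and 4 in SA (background 25.9%), and for the difference of the changes 6 were (background 30.4%). A single transcript carried at least 82.2% of SMAD1, SMAD2, SMAD3, SMAD4 and SMAD6 in every library, nearly all of SMAD5 came from XM_005682962.2, and SMURF2 had 1 transcript. SMAD3, for example, held 99.6% of its FPKM in XM_013966776.2 in IMPA and 96.6% in SPA.

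SMAD9, SMAD7 and SMURF1 were split mainly between 2 transcripts each, and for SMAD9 and SMURF1 the share of the main transcript had a wider relative spread among replicates than the sum. The main SMAD9 transcript, XM_018056661.1, held between 29.8% and 85.5% of SMAD9 in the 5 SA libraries, while the SMAD9 sum there varied from 13.6 to 16.2 FPKM. Its own difference between SA and SPA was 0.04 (SE 0.26, adjusted p = 0.942 over transcripts). The second transcript, XM_005687505.3, was lower in IMPA than in SPA by -1.19 (SE 0.23, adjusted p = 0.00153), and the main one by -0.48 (SE 0.15, adjusted p = 0.0206). For SMAD7, the minor transcript XM_018039656.1 rose in IMA (0.76, SE 0.25, adjusted p = 0.0432), from 0.697 ± 0.654 to 1.71 ± 0.292 FPKM, and the major one, XM_005697186.3, gave 0.30 (adjusted p = 0.111 over transcripts). The main SMURF1 transcript, XM_018040223.1, held from 27.3% to 77.2% of SMURF1 over the libraries and was called in none of the comparisons. The share of the main transcript was compared in 32 exact permutation tests on 8 genes, and 3 had an unadjusted two-sided p under 0.05. These were SMAD3 in IMPA against SPA (2.95 points higher, exact p = 0.00794, the smallest that 252 divisions of 10 libraries allow) and in IMA against SA (3.28 points, exact p = 0.0159), and SMAD2 in SA against SPA (1.83 points, exact p = 0.0159). Transcripts of a gene share most of their sequence, so their split is less certain than their sum.

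**Figure D3:**
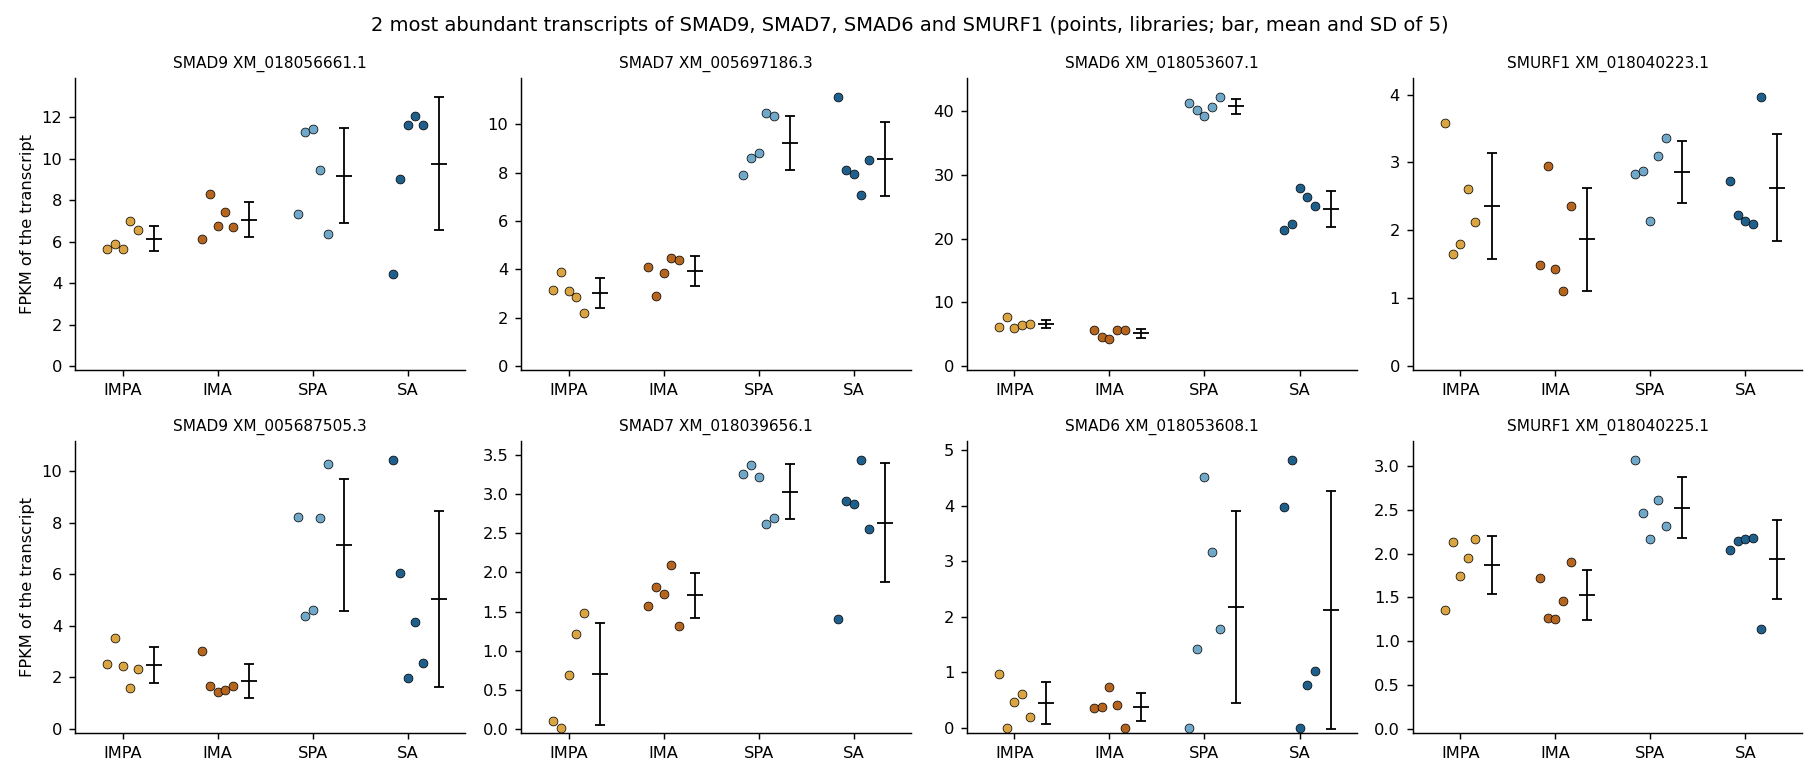
FPKM of the 2 most abundant transcripts of SMAD9, SMAD7, SMAD6 and SMURF1 in each library (points; horizontal bar and whiskers, mean and SD of 5), on linear axes. In SA the main SMAD9 transcript (top left) ranges from 4.42 to 12.0 FPKM and the second (bottom left) from 1.97 to 10.4, whereas the main SMAD6 transcript separates the depots.

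The rest of the pathway was read from 9 lists of 123 genes, 95 of them tested. Of these 95, 77 were called between IMPA and SPA, 80 between IMA and SA, 60 between IMA and IMPA and 64 between SA and SPA, which is 81.1%, 84.2%, 63.2% and 67.4% beside the 75.1%, 72.4%, 60.1% and 52.1% of all genes. The difference of the induction changes was called for 47 (49.5%, background 55.3%). SKIL and PMEPA1 stand in 2 lists each. Among the receptors, 9 of 13 were lower in IMPA than in SPA (background 32.9%), and 8 of 13 fell in SA (background 26.0%). TGFBR3, the betaglycan co-receptor, averaged 10.3 FPKM in IMPA, 9.63 in IMA, 69.3 in SPA and 61.3 in SA. ACVRL1, a type I receptor that signals to SMAD1 and SMAD5, averaged 0.446, 1.13, 11.7 and 8.84 FPKM in the same order. TGFBR2 fell in both depots, from 34.1 to 25.0 and from 51.6 to 41.0 FPKM. Of the tested ligands of the TGF-beta, activin and myostatin branch, 5 of 6 were higher in IMPA than in SPA (background 42.3%) and 5 of 6 in IMA than in SA (background 29.0%). TGFB2 averaged 11.4 and 13.1 FPKM in the intramuscular groups and 0.220 and 0.791 in SPA and SA, and INHBA, the activin A subunit, 12.5 and 13.4 against 0.0504 and 0.0123. TGFB3 rose in IMA (9.41 to 28.1 FPKM) and fell in SA (22.7 to 11.0). Of 12 BMP and GDF ligands, 2 passed the minimum, BMP4 and BMP1, a procollagen protease despite its name, and BMP4 was higher in IMPA than in SPA (1.34, adjusted p = 5.91e-07).

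Antagonists were split, 4 higher (background 42.3%) and 6 lower (background 32.9%) of 10 in IMPA against SPA. GREM1, a secreted BMP antagonist, averaged 34.1 FPKM in IMPA, 23.3 in IMA, 249 in SPA and 112 in SA. All 8 tested targets of BMP-SMAD signalling fell in SA (background 26.0%), and 4 of 8 fell in IMA (background 40.2%). In IMPA against SPA, 6 of 8 were lower (background 32.9%) and 2, ID4 and HEY1, were higher (background 42.3%). The median differences of the 8 targets were, in that order, -0.39, -0.20 and -0.996, beside -0.01, -0.09 and 0.05 over all genes. ID2, an inhibitor of DNA binding induced by BMPs, averaged 16.5, 12.4, 67.9 and 47.3 FPKM in IMPA, IMA, SPA and SA, and ID1 224, 211, 397 and 233. Targets of TGF-beta and SMAD3 were mixed: 10 of 16 rose and 4 fell in IMA (background 19.9% and 40.2%), and 7 rose and 4 fell in SA (background 26.1% and 26.0%). The 4 falls in SA were thus near the background. Among them TGFBI averaged 149, 256, 780.3 and 436 FPKM in IMPA, IMA, SPA and SA, whereas CDKN2B, an inhibitor of the cell cycle, averaged 15.8, 26.4, 0.748 and 1.44. Of 15 nuclear partners and repressors, 7 fell and 1, SKIL, rose in IMA, the falls being close to the background of 40.2% and the rise below that of 19.9%, and SKIL also rose in SA (0.61 and 0.30). Of 16 other ligases, deubiquitinases and phosphatases, 9 fell (background 40.2%) and 3 rose, near the background of 19.9%, in IMA, NEDD4L was higher in IMPA than in SPA (2.61 against 0.311 FPKM), and NEDD4, its relative, was lower in IMA than in SA (8.62 against 13.9 FPKM). Of 11 adaptors and import factors, 6 fell in IMA (background 40.2%) and 5 in SA (background 26.0%), among them AXIN1 in IMA (-0.53) and ZFYVE9, the SARA anchor of SMAD2 and SMAD3, in SA (-0.34).

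**Figure D4:**
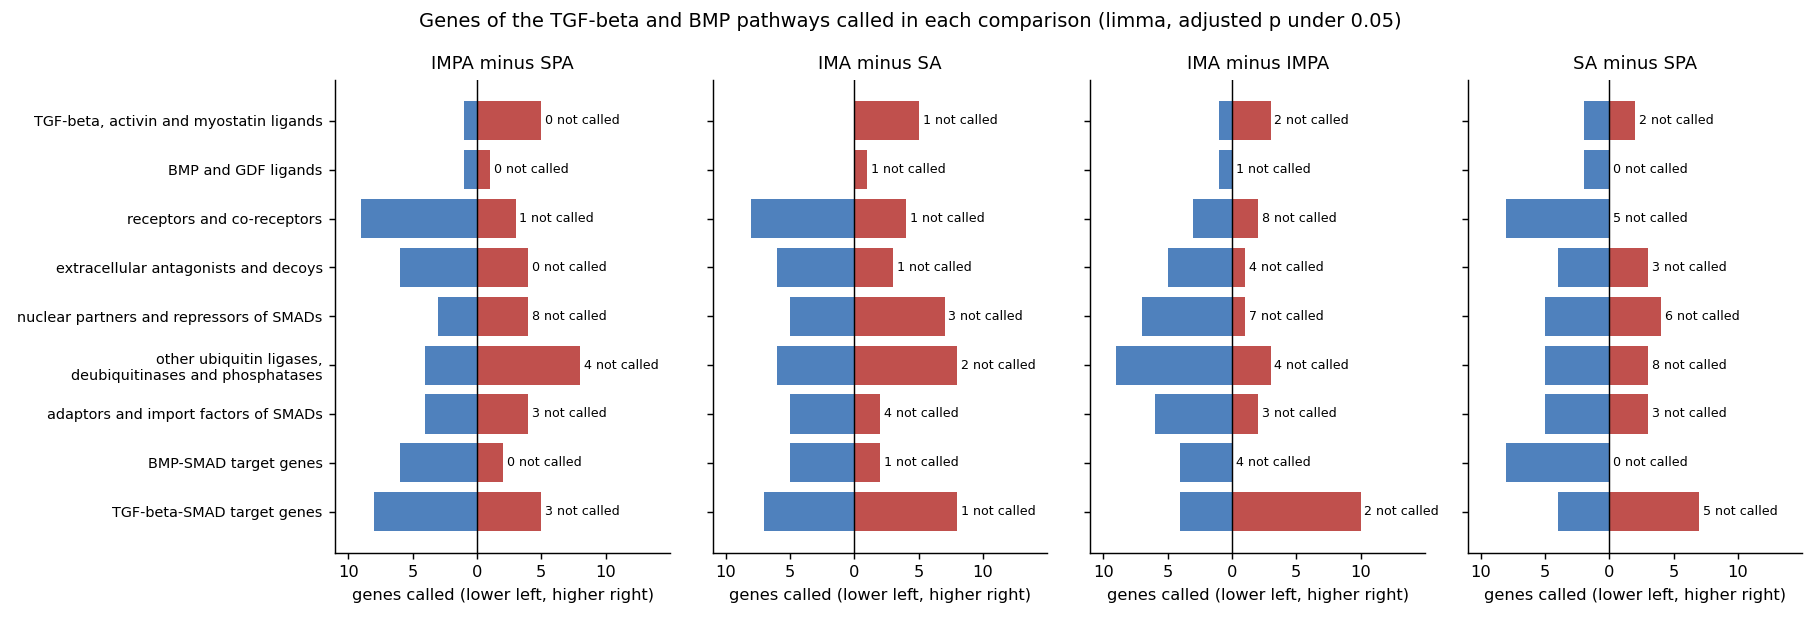
Number of genes called higher (right, red) and lower (left, blue) in each of 9 pathway lists for the 4 comparisons of 2 groups, with the number tested but not called beside each bar. All 8 BMP-SMAD targets and 8 of 13 receptors are lower in SA than in SPA, and 9 of 13 receptors are lower in IMPA than in SPA.

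The study pairs 6 newly assembled lncRNAs with SMAD1, chosen for their correlation with it over these same libraries, so their match in pattern is not independent of that choice. Their values are given without a test. LNC_008467, an intergenic lncRNA, was at 3.42 to 4.00 FPKM in IMPA and at 7.25 to 8.88 in IMA, and at most at 0.0819 in the subcutaneous libraries. LNC_000706 was at 1.32 to 1.67 in IMPA and at 2.09 to 2.34 in IMA, and LNC_004878 at 0.540 to 0.840 and at 1.36 to 1.57. The antisense LNC_006192 was at 0.679 to 0.933 and at 1.15 to 1.40 FPKM, and the intronic LNC_009792 at 0.363 to 0.573 and at 0.755 to 1.14. These 4 reached at most 0.0579 FPKM in any subcutaneous library, and most of those libraries were listed at 0. SMAD1 itself was far from 0 in those libraries, at 9.70 to 13.6 FPKM. LNC_007731, an intronic lncRNA, ran opposite to SMAD1: 1.15 to 1.38 FPKM in IMPA, 0.605 to 0.812 in IMA, 2.30 to 2.80 in SPA and 3.21 to 3.42 in SA.

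In the part of the study's lists read here, SMURF2 appeared with LNC_001293, an antisense lncRNA at 1.87 ± 0.148 FPKM in IMPA, 7.02 ± 0.367 in IMA, 0.183 ± 0.0288 in SPA and 0.356 ± 0.0517 in SA. SMAD6 and SMAD3 appeared there with the intronic LNC_006603, at 1.53 ± 0.334, 1.04 ± 0.215, 5.38 ± 0.679 and 2.76 ± 0.389 FPKM in IMPA, IMA, SPA and SA. LNC_005330, an intergenic lncRNA that appeared with the same genes, was at 0.918 ± 0.134, 0.947 ± 0.0309, 4.69 ± 0.250 and 3.33 ± 0.429. These 3 were also paired by the study through correlation over these same libraries, so their match in pattern is not independent of that choice. They were looked up after the data had been seen.

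**Figure D5:**
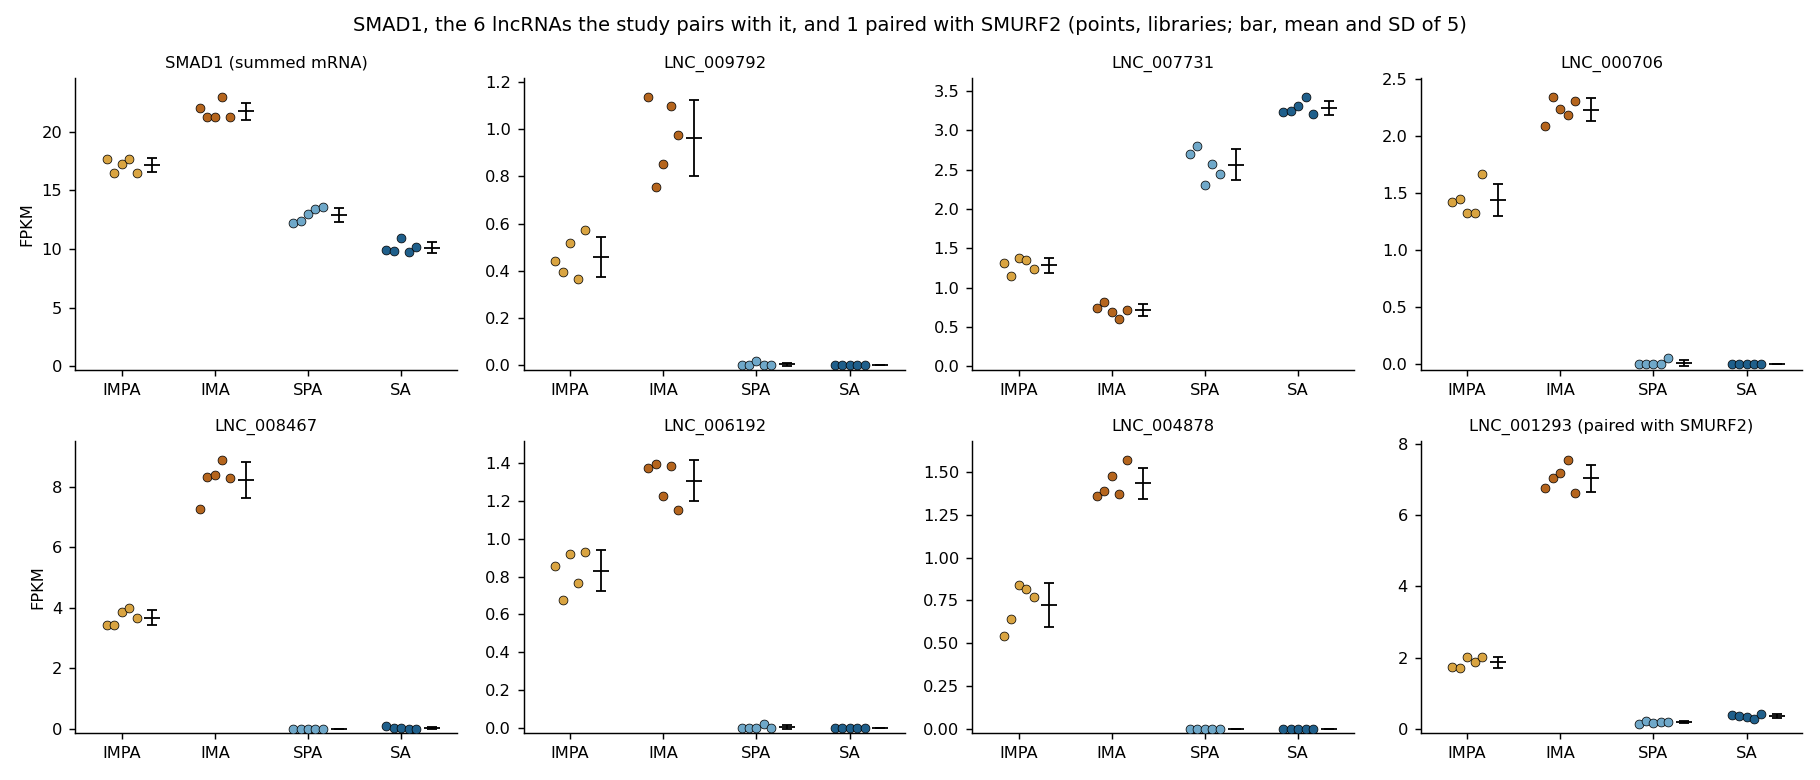
FPKM per library (points; horizontal bar and whiskers, mean and SD of 5) of SMAD1, the 6 lncRNAs paired with it and 1 paired with SMURF2, on linear axes from 0. Most of the SMAD1-paired lncRNAs sit at or near 0 in SPA and SA and are higher in IMA than in IMPA, while LNC_007731 is highest in SA (3.21 to 3.42 FPKM).

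In the gene order of the RefSeq annotation of ARS1.2, a goat assembly other than that of the files, SMAD3 and SMAD6 were neighbours with 1 annotated lncRNA, LOC108636838, between them. That lncRNA was at 0.218 ± 0.0457 FPKM in IMPA, 0.392 ± 0.0660 in IMA, 2.14 ± 0.299 in SPA and 1.13 ± 0.174 in SA, and so was higher in the subcutaneous cells like both genes. Of the flanking genes, LCTL was at 23.5, 11.8, 43.2 and 17.4 FPKM in the same order (IMPA against SPA, -0.86, adjusted p = 4.76e-07), and AAGAB did not differ detectably between IMPA and SPA (0.06, adjusted p = 0.239) but was lower in IMA than in SA (-0.21, adjusted p = 0.0102), like SMAD3 and SMAD6. SMAD2 and SMAD7 lay further apart, with 2 protein-coding genes, ZBTB7C and CTIF, between them. CTIF was higher in IMPA than in SPA (1.20, adjusted p = 5.41e-10), against the direction of SMAD7.

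SMAD6, SMAD3 and SMAD7 had the widest ranges of group means (2.75, 1.56 and 1.49 on the log2 scale), and the tested genes with the most similar profiles over the 20 libraries were looked up by the root mean square difference of centred log2 values. For SMAD6 these were ADAM33 (0.14), PTPRJ (0.15) and PROS1 (0.15). EGFR (0.07), ORAI3 (0.11) and STAT6 (0.12) were closest to SMAD3, and EGFR averaged 5.93, 5.11, 18.5 and 10.9 FPKM in IMPA, IMA, SPA and SA. FXYD5 (0.13), CAT (0.15) and MITF (0.16) were closest to SMAD7. Within the family, ranks depended on the gene compared with. In likeness to SMAD7, SMAD9 ranked 244, SMAD3 257 and SMAD6 5403. In likeness to SMAD6, SMAD3 ranked 270, SMAD7 390 and SMAD1 10085, among the least similar genes. In likeness to SMAD3, SMAD7 ranked 323, SMAD9 416 and SMAD6 2678. Such likeness is over 20 libraries that form 4 groups and is a description.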

How the data were processed

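The authors sequenced strand-specific RNA libraries, aligned the reads with HISAT2 2.0.4 to the goat genome and deposited FPKM values per transcript, calculated with StringTie 1.3.1 and Ballgown, in separate tables for mRNAs, annotated lncRNAs and newly assembled lncRNAs. No counts were used, so the depth behind a value is unknown. From these, FPKM were summed per gene symbol and tested as log2(FPKM + 1), without further scaling, for genes whose mean over all libraries reached 1 FPKM, in limma 3.58.1 under R 4.3.3 (linear model, moderated variances with a trend). Each comparison of 2 groups used its 10 libraries, and the difference of the induction changes used all 20. P-values were adjusted over all genes tested by the Benjamini-Hochberg method. Summaries used pandas 2.3.3 and numpy 2.4.6 (Python 3.11.15), exact tests scipy 1.17.1, and plots matplotlib 3.10.9.

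All 10 genes were named. From each pathway list the text draws on the 2 called genes with the smallest p in each comparison (1 such gene is not reported here), and for the 3 genes with the widest range of group means it gives the 3 most similar genes. PTPRC, MYOD1, MYOG, DES, DLK1, ADIPOQ, PLIN1, CIDEA, CIDEC, CD36, CEBPA and the neighbouring genes were named after their values had been seen. So were COL3A1, DCN, CD34, CD14, CSF1R, AIF1, ITGAM, ID4 and HEY1. The genes and lists were chosen with earlier results of these data known. The steps were tested on simulated data. RefSeq gene order on ARS1.2, matched by gene ID for 10 of 10 genes, was used without coordinates. Alternatives changed the filter, the pseudocount, the scaling, the model, the transcript used and the libraries included. Sequences were not used here.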

Additional observations from a re-analysis of the deposited data

Results flagged for a closer look

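Of 40 groups of 5 values (10 genes in 4 groups), 2 held a library apart from the rest by Dixon's ratio, about as many as chance gives (1 in 20). SMAD4 was at 19.7 FPKM in SPA 1, against 22.3 FPKM for the next SPA library (ratio 0.745, critical value 0.71). SMAD7 was at 12.5 FPKM in SA 1, against 11.1 FPKM for the next (ratio 0.716), and the SMAD7 difference between SA and SPA passed the threshold without that library. The induction change differed between the depots, by the interaction term over 20 libraries, for SMAD1 (0.65, adjusted p = 4.13e-09), SMAD3 (0.54, adjusted p = 0.000188), SMAD5 (0.22, adjusted p = 0.00271), SMAD6 (0.37, adjusted p = 0.000207), SMAD7 (0.61, adjusted p = 1.11e-05) and SMURF2 (0.26, adjusted p = 0.000226), each on the log2 scale and more positive in intramuscular cells. SMAD1 rose in one depot and fell in the other, SMAD7 and SMURF2 rose in IMA, SMAD3 and SMAD5 fell in SA, and SMAD6 fell in both.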

How the results depend on the processing

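For the counts of called SMAD and SMURF genes, every alternative stayed within 1.5 times the value reported: 4 to 6 for IMA against IMPA, 4 to 7 for SA against SPA, 6 to 9 for IMPA against SPA, 6 to 8 for IMA against SA and 5 to 7 for the difference of the induction changes. Of 600 single-gene values with 1 library left out, 565 kept direction and side of the threshold, 25 lost and 6 gained the call, and 4 changed sign. Of 530 values under the other settings, 494 did, 24 lost and 4 gained the call, and 8 changed sign. No value that changed sign was called after the change, and the causes were not tested. With equal summed mRNA FPKM, SA against SPA turned to -0.038 for SMAD2 and -0.042 for SMURF2, and the SMAD4 difference of changes to 0.0069. The most abundant transcript alone gave 0.041 for SMAD9 in SA against SPA, -0.0023 for SMAD2 in IMA against SA and -0.13 for the SMURF1 difference of changes. An ordinary linear model with a library-size covariate gave -0.017 for SMAD4 in IMA against SA. Without SPA 1 and SA 5 the SMAD4 difference of changes was 0.042. With 1 library left out, SMAD2 in IMA against SA ran from -0.0080 (without SA 4) to 0.042, and the SMAD4 difference of changes from -0.075 to 0.012 (positive without SA 1, SA 5 or SPA 1). With the replicate number as a block, 5, 6, 8, 8 and 7 genes were called in the same order of comparisons. SMURF1 in IMA against IMPA was lost (adjusted p = 0.0708) and the SMAD9 difference of changes was gained (adjusted p = 0.0370), and the block changed no other call. Deviations of libraries with equal numbers correlated at 0.042 to 0.12 in IMPA and IMA, where 4 of 5 pairs matched best on their own number, and at -0.24 to 0.12 in SPA and SA, where none did. The correlations were low or of mixed sign, and libraries were not treated as paired. In IMPA and IMA, where all were positive and most pairs matched, a pairing may still exist. What libraries share beyond the number is not known. The SMAD9 difference of changes, 0.18 (adjusted p = 0.0595), was also called with equal summed mRNA FPKM (adjusted p = 0.0403) and without IMA 3, IMA 5, IMPA 2 or SA 4 (adjusted p = 0.0269 to 0.0439), and that of SMAD7 was lost for the most abundant transcript alone (0.40, adjusted p = 0.0705). No fragment counts per gene were used, so no counting error is given.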
